A study of Rattus norvegicus with 9 samples.

Results

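The 10 genes described here act in osteocytes and in the mineralisation of bone matrix. They were chosen by name as Dmp1, Mepe, Spp1, Ibsp, Phex, Fgf23, Sost, Alpl, Smpd3 and Slc13a5, each of which matched 1 of the 31125 gene rows of the count table. All 10 were among the 15936 genes that passed the low-count filter. RNA was sequenced from intact femurs of male rats at day 7 in 3 groups of 3 libraries. GMTT femurs had the distal growth plate injured and received the GMTT hydrogel, named in the series title as a GelMA (methacrylated gelatin) gel with tea polyphenols and TPGS, a derivative of vitamin E. The label of these samples calls the growth plate intact, while the series text gives the injury, and the series text is followed here. GPI femurs had the same injury without hydrogel, and Sham femurs had sham surgery. The sources used here give neither strain nor age, nor whether tissue of several animals was pooled, and a group with injury and an empty gel was not analysed here.

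Osteoblasts lay down a collagen matrix, and some of them become enclosed in it as osteocytes, the long-lived cells of mature bone. Mineral forms where phosphate is freed from its organic and pyrophosphate forms, and acidic secreted phosphoproteins bind the growing crystals. Osteocytes also act as endocrine and signalling cells: they release FGF23, a hormone that makes the kidney excrete phosphate, and sclerostin, which restrains bone formation. In mice, loss of Dmp1 or Phex raises Fgf23 in bone.

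Each library held between 15927429 and 19715997 counts. Tissue content differed widely between the groups and stands beside every value below. The 10 skeletal muscle markers took 2.10% to 2.26% of the counts in GMTT, 9.95% to 10.6% in GPI and 0.217% to 0.235% in Sham, and the 9 erythroid markers took 4.14% to 4.55%, 0.103% to 0.113% and 7.75% to 8.69% in the same order of groups. The 10 neutrophil markers took 1.29% to 1.35% in GMTT, 0.000532% to 0.000634% in GPI and 1.09% to 1.16% in Sham, and the 8 osteoclast markers 0.107% to 0.115%, 0.00552% to 0.00557% and 0.108% to 0.114%. The 10 macrophage markers took 0.606% to 0.634% in GMTT, 0.00755% to 0.00831% in GPI and 0.578% to 0.616% in Sham. Of these, Marco had no count in any group. Mitochondrially encoded genes took 5.85% to 6.55% in GMTT, 25.8% to 27.3% in GPI and 3.80% to 4.19% in Sham. The 9 chondrocyte markers, which would mark growth plate cartilage, took no more than 0.00446% in GMTT, 0.00326% in GPI and 0.00495% in Sham, and Cnmd had no count in GMTT and Sham. The osteoclast gene Ocstamp had no count in GPI, while none of the muscle, erythroid and neutrophil markers was at 0 in any group. The part of these contents in the differences below was not tested. In bulk femur RNA, fewer cells of a type and less RNA per cell cannot be told apart. The 5 osteocyte-defining genes, Dmp1, Mepe, Phex, Sost and Fgf23, had counts in every group, and together took 0.0260% to 0.0271% of the counts in GMTT, 0.000947% to 0.000999% in GPI and 0.0499% to 0.0517% in Sham.

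Within a library, levels of different genes were compared as FPKM, which is per length. In GMTT the order ran from Spp1 (249 FPKM) through Ibsp (78.7), Mepe (38.6), Dmp1 (33.2), Alpl (33.1), Sost (12.1), Smpd3 (6.08), Phex (3.62) and Fgf23 (3.05) to Slc13a5 (2.28). Dmp1 and Alpl were the only neighbours in GMTT whose libraries overlapped. In GPI the order was Ibsp (28.1 FPKM), Alpl (22.4), Spp1 (18.7), Smpd3 (4.53), Dmp1 (3.67), Mepe (1.69), Slc13a5 (1.08), Phex (0.593), Sost (0.233) and Fgf23 (0.0337), with overlap only between Sost and Fgf23. In Sham it was Spp1 (435 FPKM), Mepe (79.6), Dmp1 (72.3), Ibsp (61.7), Alpl (29.7), Sost (15.7), Smpd3 (4.71), Phex (4.26), Slc13a5 (1.32) and Fgf23 (0.570), with no overlap between neighbours. Spp1 thus headed the GMTT and Sham lists and stood behind Ibsp and Alpl in GPI, and Fgf23 was last in GPI and Sham but above Slc13a5 in GMTT.

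**Figure D1:**
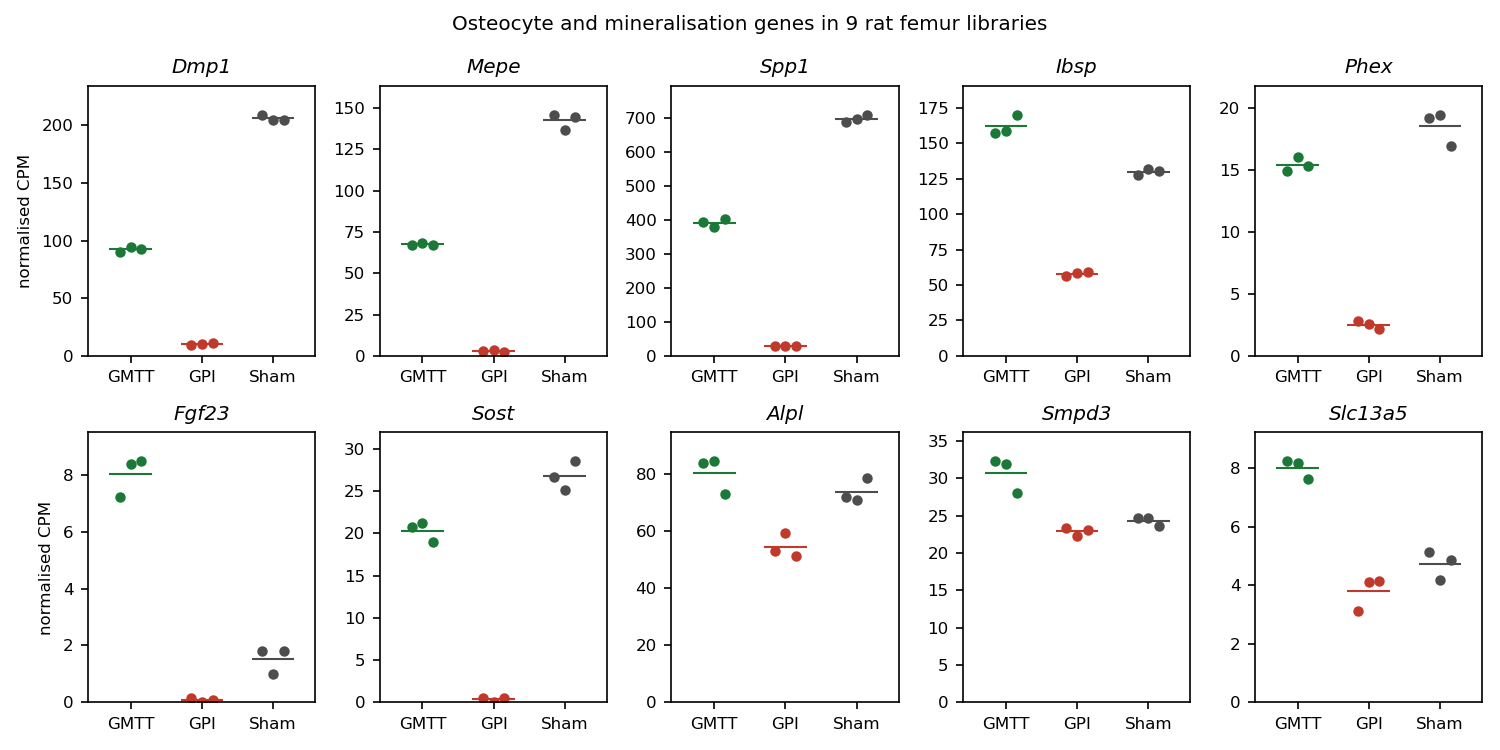
Normalised CPM (counts scaled to library size and by TMM, linear axis from 0) of each gene in the 3 GMTT, 3 GPI and 3 Sham libraries; points are libraries and lines are group means. GPI is the lowest group for all 10 genes, and GMTT lies below Sham for Dmp1, Mepe, Spp1, Phex and Sost and above it for Ibsp, Fgf23, Smpd3 and Slc13a5.

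Dmp1, Mepe, Spp1 and Ibsp encode SIBLING proteins, small integrin-binding glycoproteins that are rich in acidic residues and bind mineral. The 4 genes lie on chromosome 14 of mRatBN7.2, all on the minus strand and within 262.8 kb of each other together with the tooth gene Dspp. Spp1 (ENSRNOG00000043451) spans bases 5308885 to 5315162, Mepe (ENSRNOG00000002154) 5420635 to 5432183, Ibsp (ENSRNOG00000002158) 5439829 to 5452693 and Dmp1 (ENSRNOG00000002167) 5528431 to 5539323. The changes of Spp1, Mepe and Ibsp differed in size and, for Ibsp in GMTT against Sham only, in direction. The sequences before their starts are shown so that the upstream regions can be compared. They are the 250 bases before the RefSeq start, 5' to 3', with capitals marking matches to the motifs named after them.
Spp1 (GRCr8 chr14:5619805-5620054, minus strand): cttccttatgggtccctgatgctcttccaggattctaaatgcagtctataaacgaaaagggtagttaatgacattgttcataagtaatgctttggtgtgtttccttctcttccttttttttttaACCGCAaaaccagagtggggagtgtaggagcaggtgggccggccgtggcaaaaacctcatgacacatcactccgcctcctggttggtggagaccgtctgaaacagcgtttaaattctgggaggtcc
Mepe (GRCr8 chr14:5736859-5737108, minus strand): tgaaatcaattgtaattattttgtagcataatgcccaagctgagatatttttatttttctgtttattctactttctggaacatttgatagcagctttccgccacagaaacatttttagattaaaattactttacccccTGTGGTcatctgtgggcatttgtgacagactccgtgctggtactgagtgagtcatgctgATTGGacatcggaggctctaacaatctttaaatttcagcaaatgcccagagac
Ibsp (GRCr8 chr14:5757243-5757492, minus strand): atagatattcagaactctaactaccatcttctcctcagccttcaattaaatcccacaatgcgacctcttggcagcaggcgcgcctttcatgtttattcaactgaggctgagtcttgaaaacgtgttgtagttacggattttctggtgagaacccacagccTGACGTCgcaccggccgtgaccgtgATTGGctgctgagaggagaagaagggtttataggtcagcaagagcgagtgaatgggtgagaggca
The motifs searched on both strands were TGTGGT and TGCGGT, core forms bound by RUNX factors, CCAAT, and TGACGTC, the core of a cAMP response element. None of these matches overlapped another. Spp1 held the RUNX form as ACCGCA 126 bases before its start, and Mepe held TGTGGT at 112 and the CCAAT box as ATTGG at 53. Ibsp held TGACGTC at 90 and ATTGG at 65. Among the members whose sequence is not printed, Slc13a5 held ACCGCA at 102 and CCAAT at 58, Sost held ATTGG at 71, and Dmp1 and Alpl held none of the motifs. Of 33469 rat promoters of this length, 14.5% held TGTGGT, 5.02% held TGCGGT, 34% held CCAAT and 2.8% held TGACGTC. RefSeq gave a promoter window for 7 of the 10 genes. The windows of Dmp1, Spp1 and Slc13a5 lie inside the RefSeq span of the same gene, so a transcript of it starts further upstream, and the Dmp1 window, which holds no motif, is not printed. These matches describe letters in a window, not bound sites.

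Spp1, which encodes osteopontin, a phosphoprotein of bone that macrophages and osteoclasts also make, had the highest counts of the 10 genes in GMTT and Sham. Its normalised CPM, the count scaled to library size and between libraries by TMM, were 393, 378 and 403 in GMTT, 27.8, 29.6 and 30.4 in GPI, and 688, 696 and 708 in Sham. The 3 groups did not overlap, and GPI was far below both others. Dmp1, an osteocyte phosphoprotein that nucleates mineral, had 90.1, 94.6 and 93.0 CPM in GMTT, 9.05, 10.6 and 11.1 in GPI, and 209, 205 and 204 in Sham. Mepe, an osteocyte matrix phosphoprotein whose acidic peptide inhibits mineralisation, had 67.0, 68.5 and 67.2 CPM in GMTT, 3.21, 3.27 and 2.41 in GPI, and 146, 137 and 145 in Sham. Dmp1 and Mepe kept the same group order as Spp1, with Sham highest and GPI lowest. Ibsp, bone sialoprotein, which osteoblasts make where mineral first forms, had 158, 158 and 170 CPM in GMTT, 56.3, 58.3 and 58.9 in GPI, and 127, 132 and 130 in Sham. It was the SIBLING gene whose highest group was GMTT.

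Phex, Fgf23 and Sost belong to the signalling side of osteocytes. In mRatBN7.2 Phex (ENSRNOG00000023440) lies on chromosome X from 37610760 to 37854469, Fgf23 (ENSRNOG00000066556) on chromosome 4 from 159914272 to 159923821 and Sost (ENSRNOG00000071073) on chromosome 10 from 86911517 to 86915561. Phex, an endopeptidase on the osteocyte surface whose loss causes phosphate wasting, had 14.9, 16.1 and 15.3 CPM in GMTT, 2.79, 2.60 and 2.21 in GPI, and 19.3, 19.5 and 17.0 in Sham. Sost, which encodes the Wnt antagonist sclerostin, had 20.7, 21.2 and 19.0 CPM in GMTT, 0.508, 0.0840 and 0.578 in GPI, and 26.7, 25.1 and 28.5 in Sham. Sost was nearly absent from GPI, with 13 counts over the 3 libraries against 1401 in GMTT and 1745 in Sham. Fgf23 had 169, 191 and 193 counts in GMTT (7.21, 8.39 and 8.46 CPM), 2, 0 and 1 counts in GPI, and 37, 23 and 39 counts in Sham (1.81, 0.996 and 1.79 CPM). Every GMTT library was above every Sham library for Fgf23, and the GPI libraries held next to no Fgf23 reads.

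Alpl, Smpd3 and Slc13a5 encode proteins that act on mineral precursors. They lie on chromosome 5 from 149951409 to 150006446 (Alpl, ENSRNOG00000013954), on chromosome 19 from 34162341 to 34245749 (Smpd3, ENSRNOG00000000257) and on chromosome 10 from 56866249 to 56890945 (Slc13a5, ENSRNOG00000014870). Alpl, tissue-nonspecific alkaline phosphatase, removes pyrophosphate and frees phosphate. It had 84.1, 84.5 and 73.0 CPM in GMTT, 53.1, 59.3 and 51.3 in GPI, and 72.0, 71.1 and 78.6 in Sham, so that GMTT and Sham overlapped. Smpd3, a neutral sphingomyelinase needed for mineralisation in mice, had 32.2, 31.9 and 28.0 CPM in GMTT, 23.4, 22.2 and 23.1 in GPI, and 24.6, 24.7 and 23.6 in Sham. Slc13a5, a plasma membrane citrate transporter whose citrate is bound into bone mineral, had 8.23, 8.17 and 7.63 CPM in GMTT, 3.13, 4.12 and 4.14 in GPI, and 5.13, 4.20 and 4.87 in Sham. These 3 genes had the smallest spread between groups of the 10, and GPI was close to Sham for Smpd3 and Slc13a5.

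The comparison of GPI with Sham addresses growth plate injury at day 7. All 8 genes that passed the test fell in GPI, and the osteocyte genes Sost and Mepe showed the deepest falls. The background was high: 48.1% of all genes tested were called lower and 40.1% higher in this contrast, 88.2% in all. The GPI libraries of all 10 genes lay below every Sham library, as did those of 48.2% of all genes tested, while 88.3% did not overlap in one direction or the other. Sost was at 0.390 ± 0.267 CPM in GPI against 26.7 ± 1.71 in Sham (SD, n = 3 each), a log2 fold change of -6.11 (SE 0.20). This SE can understate the error at 13 Sost counts in GPI, and leaving out single libraries gave -6.47 to -5.61. Mepe was at 2.97 ± 0.485 against 142 ± 4.88 CPM (-5.57, SE 0.09), and Spp1 at 29.3 ± 1.32 against 697 ± 9.90 CPM (-4.58, SE 0.06). On the log2 scale the change was -4.33 for Dmp1 and -2.86 for Phex. For Fgf23 the 3 counts of GPI against 99 of Sham made the Sham level 17.2 times that of GPI (95% counting interval 5.73 to 85.0).

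Ibsp and Alpl fell far less in GPI. Ibsp was at 57.8 ± 1.39 CPM in GPI against 130 ± 2.12 in Sham (-1.17, SE 0.05), and Alpl at 54.6 ± 4.18 against 73.9 ± 4.10 CPM (-0.43, SE 0.07). The adjusted p of the 8 called genes ran from 1.66e-35 for Spp1 to 4.28e-07 for Alpl (edgeR, quasi-likelihood F test, Benjamini-Hochberg over all genes). Slc13a5 (-0.32, SE 0.16, adjusted p = 0.0594 in the same edgeR test) and Smpd3 (-0.09, SE 0.08, adjusted p = 0.290) were not called. Without Sham replicate 2, Slc13a5 was called at -0.40 (adjusted p = 0.0288 in edgeR). The median over the 10 genes was -3.44, beside -0.19 over all genes tested. With library sizes as the only scaling the median of all genes moved to -1.28 and the split of called genes to 23.9% higher and 76.1% lower, against 45.5% and 54.5%, and all 10 genes were then called lower, with Smpd3 at -1.18 and Slc13a5 at -1.41.

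**Figure D2:**
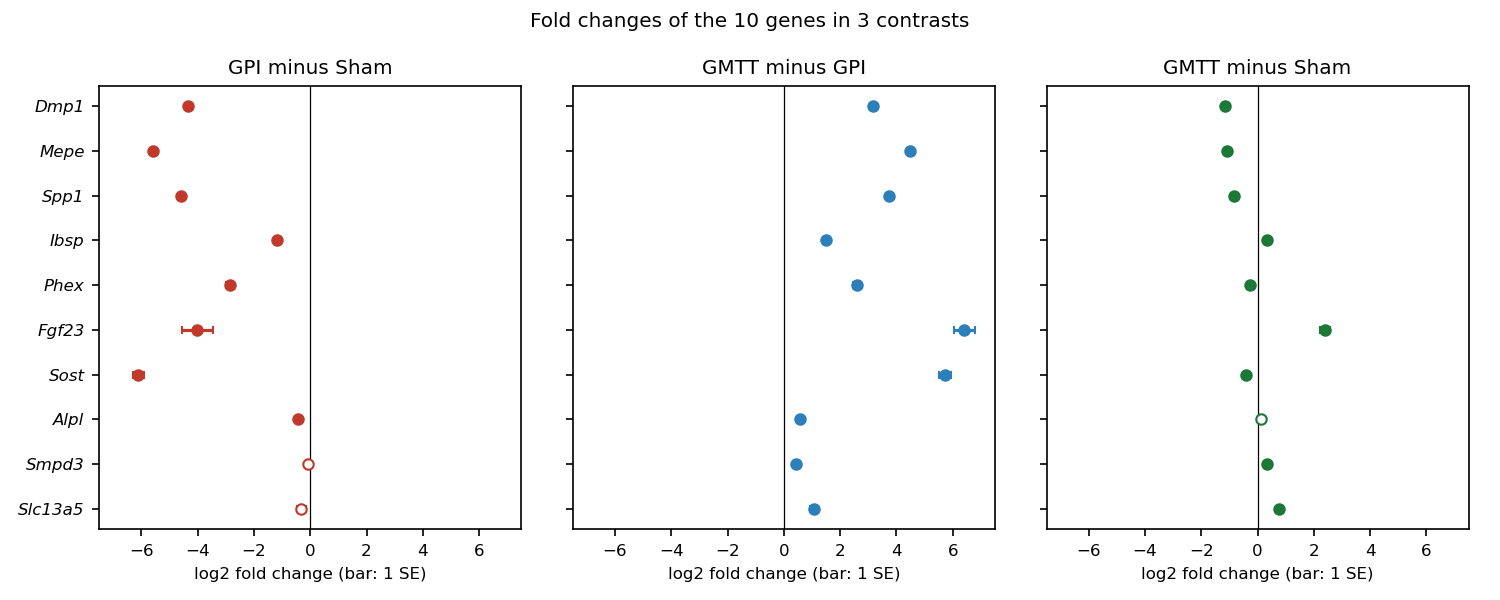
Log2 fold changes with 1 SE for each gene in GPI minus Sham, GMTT minus GPI and GMTT minus Sham; filled points passed an adjusted p of 0.05 and open points did not. The falls in GPI ran from -0.43 for Alpl to -6.11 for Sost among called genes. All 10 genes rose in GMTT over GPI, and GMTT minus Sham lies on both sides of 0. The bars can be too short for genes with few GPI counts, such as Sost and Fgf23.

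The comparison of GMTT with GPI addresses the hydrogel in the injured femur. All 10 genes were higher in GMTT, where 45.7% of all genes tested were called higher and 40.2% lower, 85.9% in all. No GMTT library of these genes overlapped GPI, against 46% of all genes that lay higher without overlap and 86.2% either way. This contrast and the preceding one share the GPI libraries, so the values of each are given on their own. Sost was at 20.3 ± 1.16 CPM in GMTT against 0.390 ± 0.267 in GPI (log2 5.71, SE 0.21), and Mepe at 67.5 ± 0.811 against 2.97 ± 0.485 CPM (4.50, SE 0.10). Spp1 rose by 3.74, Dmp1 by 3.18, Phex by 2.60 and Ibsp by 1.49 (log2). Fgf23 had 553 counts in GMTT against 3 in GPI, 91.1 times the GPI level (counting interval 31.0 to 443.2). Slc13a5 was at 8.01 ± 0.330 against 3.80 ± 0.576 CPM (1.08, SE 0.14), Alpl rose by 0.56 and Smpd3 by 0.42. Their adjusted p ran from 6.26e-33 (Spp1) to 6.25e-06 (Smpd3) with edgeR. The median of the 10 genes was 2.89, beside 0.12 over all genes. With library sizes only, the median of all genes moved to 1.22 and the split of called genes to 79.2% higher and 20.8% lower, against 53.2% and 46.8%, and all 10 genes were called higher.

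The comparison of GMTT with Sham addresses what differed from sham surgery after injury and hydrogel, and here the 10 genes parted. Of the 5 osteocyte-defining genes, Dmp1, Mepe, Phex and Sost were lower in GMTT and Fgf23 was higher. Of the others, Spp1 was lower, and Slc13a5, Smpd3 and Ibsp were higher. These 9 genes passed the test, 4 higher and 5 lower, in a contrast where 29.5% of all genes were called higher and 28.3% lower, 57.8% in all. The same 9 genes had no overlap between GMTT and Sham, as did 31.4% of all genes on the higher and 30.4% on the lower side, 61.7% in all. Fgf23 rose most: 8.02 ± 0.704 CPM in GMTT against 1.53 ± 0.465 in Sham, a log2 fold change of 2.40 (SE 0.17, 5.26-fold, adjusted p = 1.65e-13 with edgeR). Dmp1 was at 92.6 ± 2.29 CPM in GMTT against 206 ± 2.54 in Sham (-1.15, SE 0.05, adjusted p = 3.05e-19 in the same edgeR test). Mepe was at 67.5 ± 0.811 against 142 ± 4.88 CPM (-1.08, SE 0.05), and Spp1 at 391 ± 12.7 against 697 ± 9.90 CPM (-0.83, SE 0.04).

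Sost and Phex were lower in GMTT by smaller amounts. Sost was at 20.3 ± 1.16 CPM against 26.7 ± 1.71 in Sham (-0.40, SE 0.08, adjusted p = 8.67e-05 in edgeR's test), and Phex at 15.5 ± 0.579 against 18.6 ± 1.40 CPM (-0.27, SE 0.08, adjusted p = 0.00599). The Phex call was lost with DESeq2 (adjusted p = 0.0646), and both calls were lost with limma on log2(FPKM + 0.1), at 0.0954 for Phex and 0.436 for Sost. Slc13a5 was at 8.01 ± 0.330 CPM in GMTT against 4.74 ± 0.483 in Sham (0.76, SE 0.12), Smpd3 at 30.7 ± 2.35 against 24.3 ± 0.614 CPM (0.34, SE 0.07), and Ibsp at 162 ± 6.95 against 130 ± 2.12 CPM (0.32, SE 0.05). Alpl, at 80.6 ± 6.53 against 73.9 ± 4.10 CPM, was not called (0.13, SE 0.06, adjusted p = 0.0774 in edgeR's test), but passed with median-of-ratios scaling (0.16, adjusted p = 0.0240), without a low-count filter (0.13, adjusted p = 0.0436), without GMTT replicate 3 (0.20, adjusted p = 0.00253) and without Sham replicate 3 (0.17, adjusted p = 0.0241). The median of the 10 genes was -0.07 and that of all genes -0.00. Smpd3 overlaps the gene Prmt7 on the opposite strand, and the sources used here do not give the strand setting of the counting, so its reads may not be separate from those of Prmt7.

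Ratios between genes of the same library do not depend on the scaling between libraries. The pairs below were chosen after their values were seen and are descriptions. The FPKM ratio of Fgf23 to Dmp1 was 0.0918 ± 0.00615 in GMTT, 0.00968 ± 0.00992 in GPI and 0.00788 ± 0.00236 in Sham (SD, n = 3 each). GMTT lay above both other groups without overlap. GPI and Sham overlapped, but GPI held 3 Fgf23 counts in all, too few to place its ratio against that of Sham. Dmp1 to Ibsp was 0.422 ± 0.0184 in GMTT, 0.130 ± 0.0104 in GPI and 1.17 ± 0.0333 in Sham, and Spp1 to Ibsp was 3.17 ± 0.0887, 0.664 ± 0.0142 and 7.05 ± 0.102 in the same order. Osteocyte genes were not in fixed proportion either. Mepe to Dmp1 was 1.16 ± 0.0186 in GMTT and 1.10 ± 0.0324 in Sham but 0.469 ± 0.112 in GPI, and Phex to Dmp1 was 0.109 ± 0.00171 in GMTT, 0.164 ± 0.0355 in GPI and 0.0588 ± 0.00416 in Sham. Sost to Dmp1 was 0.366 ± 0.0223 in GMTT, 0.0646 ± 0.0446 in GPI, where Sost had 13 counts, and 0.217 ± 0.0144 in Sham. Dmp1 thus stood lower against Phex in both injured groups than in Sham, and Mepe stood lower against Dmp1 in GPI. Against Sost, Dmp1 stood lower in GMTT than in Sham but higher in GPI.

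To place the 10 genes against other genes of bone-forming cells, they were also set against the mean log2 level of 10 osteoblast genes, among them Runx2, Sp7, Dlx5, Bglap, Ifitm5, Pth1r, Col1a1, Col1a2 and Sparc. In this edgeR fit a change is a change of the ratio to those genes. GPI against Sham had 7 genes lower and 3 higher, where 28.7% of all genes were called lower and 58.7% higher, 87.4% in all. Sost (-5.28, SE 0.21), Mepe (-4.73, SE 0.10), Spp1 (-3.74, SE 0.07) and Dmp1 (-3.50, SE 0.08) fell more than the osteoblast genes did, as did Fgf23 (-3.21, SE 0.62) and Phex (-2.02, SE 0.15). The Fgf23 value was -4.15 without GPI replicate 1 and -2.58 without GPI replicate 2. Smpd3 (0.75, SE 0.08), Slc13a5 (0.52, SE 0.15) and Alpl (0.40, SE 0.06) rose relative to them. Ibsp was at -0.33 (SE 0.07), which turned to 0.20 without Col1a1, Col1a2 and Sparc, which fibroblasts also express, in the list and to 0.37 with the median of the 10 genes.

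GMTT against GPI on this ratio had 7 genes higher and 2 lower, where 26.3% of all genes were called higher and 60.4% lower, 86.7% in all. The changes were 4.92 for Sost (SE 0.22), 3.70 for Mepe (SE 0.10), 2.94 for Spp1 (SE 0.07), 2.38 for Dmp1 (SE 0.08) and 1.80 for Phex (SE 0.15). Fgf23 was called higher, though it had 3 counts in GPI, and Ibsp was at 0.69 (SE 0.07), a call lost with the median of the osteoblast genes, at -0.0097. Smpd3 (-0.38, SE 0.08) and Alpl (-0.24, SE 0.06) were lower, and Slc13a5 (0.28, SE 0.14, adjusted p = 0.0677 in edgeR's test) was not called. Slc13a5 turned to -0.42 with the median and to -0.030 with the narrower list. GMTT against Sham had 5 genes higher and 5 lower, where 30.6% of all genes were called higher and 22.6% lower, 53.2% in all. Fgf23 rose by 2.44 (SE 0.18), Slc13a5 by 0.80 (SE 0.11), Smpd3 by 0.37 (SE 0.07), Ibsp by 0.36 (SE 0.06) and Alpl by 0.16 (SE 0.06). The changes of the others were -1.11 for Dmp1 (SE 0.06), -1.03 for Mepe (SE 0.06), -0.79 for Spp1 (SE 0.05), -0.36 for Sost (SE 0.08) and -0.23 for Phex (SE 0.09). The falls of Sost and Phex were not called with the narrower list (-0.14 and -0.01), at adjusted p = 0.161 and 0.922 in edgeR. The fall of Phex and the rise of Alpl were each lost without GMTT replicate 1 or 2 and without Sham replicate 1 or 2, where Phex ranged over adjusted p of 0.0664 to 0.173 and Alpl over 0.0578 to 0.101 in edgeR.

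**Figure D3:**
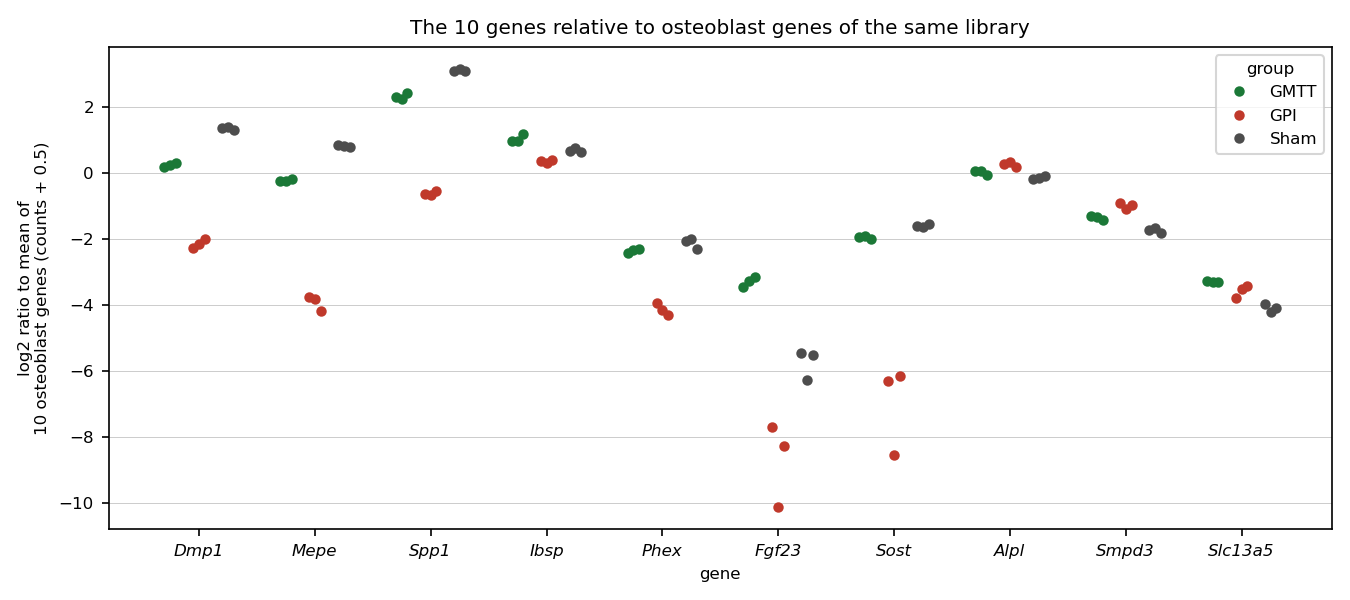
Log2 ratio of each gene's count to the mean of 10 osteoblast genes in the same library, for 3 GMTT, 3 GPI and 3 Sham libraries; each point is a library. The GPI points of Dmp1, Mepe, Spp1, Phex, Fgf23 and Sost lie below both other groups, those of Alpl and Smpd3 lie above them, and the GMTT points of Fgf23 lie above all others of that gene.

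The osteoblast genes themselves went both ways. On the TMM scale 7 of the 10 fell and 3 rose in GPI against Sham, with a median of -1.27 beside -0.19 for all genes. Bglap, the matrix protein osteocalcin, fell by 1.72 (log2), and Runx2, the master regulator of osteoblasts, fell by 1.82. The 3 that rose were Sparc (0.72), Col1a2 (0.25) and Col1a1 (0.21), genes that fibroblasts also express, of which the collagens were named after their values were seen, and all 3 turned negative with library sizes only, at -0.38, -0.85 and -0.88. In GMTT against GPI 8 rose, including Runx2 (1.80) and Bglap (0.96), and 1 fell, with a median of 1.04 beside 0.12 for all genes. GMTT against Sham had 3 higher and 4 lower, with a median of -0.04 beside -0.00. Bglap was at 163 ± 7.15 CPM in GMTT against 276 ± 23.4 in Sham (-0.76, SE 0.05), while Col1a2 (0.57), Col1a1 (0.57) and Sparc (0.25) were higher. The 9 fibroblast and tendon markers took 0.373% to 0.376% of counts in GMTT, 0.261% to 0.274% in GPI and 0.0958% to 0.0984% in Sham. All 9 were called higher than in Sham both in GPI (median 2.555) and in GMTT (median 1.716). The order of GMTT and GPI depended on the scaling. On the TMM scale 8 of these markers were lower and 1 higher in GMTT than in GPI (median -0.88). With library sizes only, 5 were higher and 3 lower. The part of the fibroblast and tendon markers' cells in the collagen values was not tested.

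Other genes linked to osteocytes did not follow Dmp1 and Mepe as a group. Of 9 such genes 3 rose and 4 fell in GPI against Sham, with a median of -0.41 beside -0.19 for all genes. Dkk1, a Wnt antagonist like Sost, had 2 counts in GPI against 529 in Sham, which was 138.2 times higher than GPI (counting interval 38.1 to 1144). Cd44, a receptor of osteopontin that leukocytes also carry, fell by 1.69, while Fbln7 (2.81) and the chemokine scavenger receptor Ackr3 (2.23) rose. Scaled by library size alone, 2 were higher and 7 lower. In GMTT against GPI 5 rose and 2 fell (median 0.73 beside 0.12), Dkk1 at 445 counts against 2 (ratio 110, interval 30.3 to 911) and Cd44 by 1.88, while Ackr3 (-1.91) and Fbln7 (-1.38) were the 2 that fell. Scaled by library size alone, 7 rose and 2 fell. In GMTT against Sham 4 rose and 2 fell (median 0.19 beside -0.00), with Fbln7 (1.43) and the membrane protease Mmp14 (1.02) higher.

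Of 13 genes of matrix mineralisation and of phosphate and pyrophosphate handling, 10 were tested. Bglap and Sparc are on this list and also among the osteoblast genes above, so they are counted in both. Dspp, the tooth SIBLING gene, had no count in GMTT and GPI and 1 in Sham. In GPI against Sham 6 rose and 3 fell, with a median of 0.68 beside -0.19 for all genes, and with library sizes only 3 rose and 7 fell. Mgp, an inhibitor of calcification, was at 200 ± 6.06 CPM in GPI against 26.1 ± 1.55 in Sham (2.94, SE 0.06). The phosphate transporters moved apart, with Slc20a2 at 2.17 and Slc20a1 at -2.25 (log2). Phospho1, a phosphatase that frees phosphate inside matrix vesicles and was named after its values were seen, rose by 1.46 in GPI, where the muscle share was also highest. Library sizes only gave 1.85 for Mgp, 1.08 for Slc20a2, -3.34 for Slc20a1 and 0.37 for Phospho1. In GMTT against GPI 3 rose and 5 fell (median -0.19 beside 0.12). Slc20a1 rose by 1.53, while Mgp (-1.99), Slc20a2 (-1.77), Phospho1 (-1.53) and Ankh, the pyrophosphate exporter (-1.28), fell. With library sizes only 6 rose and 4 fell. Slc20a1 was then at 2.63, Mgp at -0.89, Slc20a2 at -0.66, Phospho1 at -0.42 and Ankh at -0.17. In GMTT against Sham 5 rose and 4 fell (median 0.06 beside -0.00). Nt5e, which makes adenosine from AMP, was higher by 1.04 and Mgp by 0.95, and Slc20a1 was at 110 ± 0.850 CPM in GMTT against 181 ± 2.88 in Sham (-0.72, SE 0.05).

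Genes that act on or with Fgf23, Phex and Sost were read as a list of 12, of which 10 were tested. Galnt3, which glycosylates FGF23 and protects it from cleavage and was named after its values were seen, was at 11.7 ± 1.07 CPM in GMTT, 0.551 ± 0.651 in GPI and 11.7 ± 0.340 in Sham. The log2 fold change was -4.38 in GPI against Sham (SE 0.30) and 4.38 in GMTT against GPI (SE 0.30). Single GPI libraries moved these values: without GPI replicate 1 they were -5.98 and 5.98 for Galnt3, and without GPI replicate 2 they were -3.77 and 3.76. Furin, a protease that cleaves FGF23, was at 124 ± 7.84 CPM in GMTT against 178 ± 12.3 in Sham (-0.52, SE 0.05), and Fam20c, the kinase of secreted phosphoproteins including FGF23 and the SIBLING proteins, at 31.6 ± 1.95 against 51.8 ± 3.15 CPM (-0.71, SE 0.07). The sclerostin-binding Wnt co-receptor Lrp6 was higher by 0.41. These were the 3 genes of the list called in GMTT against Sham, 1 higher and 2 lower (median -0.02 beside -0.00), and with median-of-ratios scaling 3 were higher and 2 lower. In GPI against Sham 3 rose, including Lrp6 (1.74) and Lrp5 (1.24), and 6 fell, including Furin (-1.40), with a median of -1.09 beside -0.19. In GMTT against GPI 6 rose and 3 fell (median 0.54 beside 0.12). With library sizes only these splits were 2 higher and 8 lower in GPI against Sham, and 8 higher and 1 lower in GMTT against GPI. In GPI against Sham this scaling put Lrp6 at 0.65, Lrp5 at 0.15 and Furin at -2.49. The vitamin D-degrading enzyme Cyp24a1 had no count in GMTT or GPI.

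Receptors and processing enzymes of SIBLING proteins formed a list of 10, all tested. In GPI against Sham 5 rose and 4 fell, with a median of 0.32 beside -0.19 for all genes. Acp5, the osteoclast phosphatase that acts on osteopontin, was at 5.88 ± 0.730 CPM in GPI against 198 ± 11.1 in Sham (-5.07, SE 0.09), and the integrin subunit Itgb3, of osteoclasts and platelets, at 3.68 ± 0.752 against 205 ± 3.29 CPM (-5.79, SE 0.09). Mmp9 fell by 7.39 and Mmp2 rose by 1.65. In GMTT against GPI 5 rose and 4 fell (median 0.95 beside 0.12), among them Mmp9 (7.81), Mmp3 (7.07), Itgb3 (6.18) and Acp5 (4.71). With library sizes only these were 4 higher and 6 lower in GPI against Sham, and 8 higher and 1 lower in GMTT against GPI. In GMTT against Sham 7 rose and 1 fell (median 0.40 beside -0.00). Mmp3, stromelysin, which cleaves osteopontin, had 3061 counts in GMTT against 1 in Sham, 2897 times the Sham level (counting interval 519.5 to 114500). Mmp2 (1.31) and Tll1, of the family of proteases that cleaves DMP1 (2.16), were also higher. These genes are also made by other cells, among them osteoclasts and fibroblasts, whose shares are given above. All 9 neutrophil markers tested also fell in GPI against Sham (median -10.34) and rose in GMTT against GPI (median 10.65). Their part in the Mmp9 values was not tested.

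At the chromosome 14 cluster the nearest tested genes on either side, Pkd2 and Sparcl1, moved the other way from the SIBLING genes in GPI against Sham. The 3 rows with a symbol before Spp1 were Abcg3l1, Thoc2l and Pkd2, and those after Dspp were Sparcl1, Scpppq1 and Nudt9. Sparcl1, a secreted relative of Sparc made by vessels and stroma, was at 56.2 ± 1.83 CPM in GMTT, 377 ± 5.65 in GPI and 21.6 ± 0.975 in Sham. It rose by 4.13 in GPI against Sham (SE 0.06) and by 1.38 in GMTT against Sham. Pkd2, a cation channel gene 34.3 kb from the start of Spp1, rose by 2.09 in GPI against Sham and by 0.29 in GMTT against Sham, and fell by 1.80 in GMTT against GPI, where Sparcl1 fell by 2.75. Nudt9 was 0.69 higher in GPI than in Sham, which turned to -0.40 with library sizes only. Thoc2l (-0.44) and Abcg3l1 (-0.55) were lower in GPI than in Sham, and Scpppq1 was too low to test. Within the cluster, Mepe and Ibsp are direct neighbours, yet differed in the size of the change in GPI (-5.57 and -1.17) and in its direction in GMTT against Sham (-1.08 and 0.32).

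**Figure D4:**
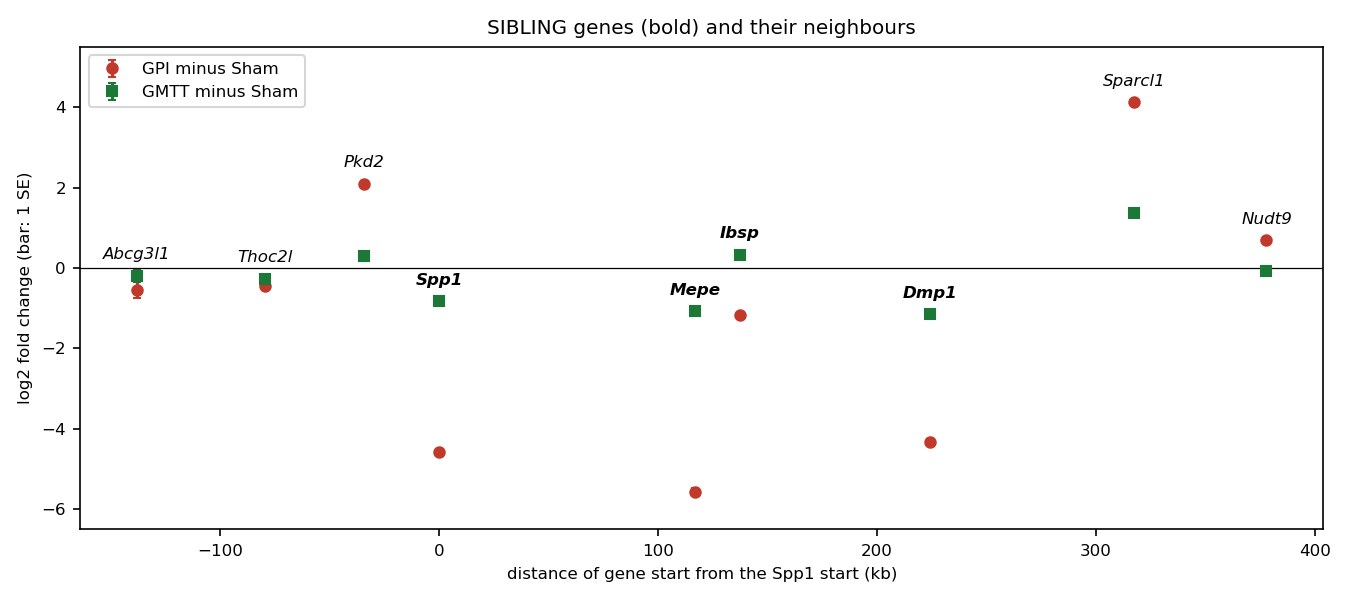
Log2 fold change with 1 SE against the distance of each gene's start from that of Spp1 in kb, for GPI minus Sham and GMTT minus Sham; SIBLING genes are in bold. Spp1, Mepe, Ibsp and Dmp1 lie below 0 in GPI minus Sham, between Pkd2 and Sparcl1, which lie above it, and Ibsp is the SIBLING gene above 0 in GMTT minus Sham.

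The genes whose profiles over the 9 libraries were most like each member were found by the root mean square difference of centred log2 CPM among 11786 candidates. For Dmp1 these included Cep70 (difference 0.126) and Cdr2 (0.130), and for Mepe they were Cdc25b (0.128), a cell cycle phosphatase, Ceacam1 (0.130) and Stambpl1 (0.183). For Spp1 they were Sema4b (0.0871), Tspan33 (0.0989) and Cdc7 (0.118). Those of Ibsp were Anxa3 (0.0449), Atp6v1a (0.0493) and Atp10d (0.0501), and those of Phex Helb (0.0766), Crlf3 (0.0783) and Slfn13 (0.0924). Those of Sost were Tnfrsf13c (0.152), which encodes a receptor found on B cells, Carmil2 (0.177) and L3mbtl1 (0.241). Alpl was closest to Rps6ka4 (0.0430), Zmym3 (0.0484) and Peds1 (0.0496), Smpd3 to Fkbp10 (0.0504), Mfsd1 (0.0585) and Mdn1 (0.0614), and Slc13a5 to Sulf2 (0.103), Flt4 (0.108) and Lonrf3 (0.110). Fgf23 had no close match, the nearest being RT1-Db1 (0.525), Cx3cr1 (0.567) and Oscar (0.623) among 11787 candidates. With 3 Fgf23 counts over the GPI libraries, counting noise alone can widen these differences. Among the 10 genes the closest pairs were Alpl with Smpd3 (0.168) and Dmp1 with Spp1 (0.239), and the farthest was Sost with Smpd3 (2.66).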

How the data were processed

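RNA of 9 rat femurs was measured by poly(A)-selected, strand-specific paired-end sequencing, per the labels' protocols. The table the authors deposited holds raw read counts and FPKM for each gene. Per the submitters' processing notes the build is mRatBN7.2. The sources used here name no aligner, counter, strand setting or rule for multi-mapping reads. Within each library the deposited FPKM is the count divided by gene length and by a single constant.

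Counts were tested with edgeR 4.0.16 in R 4.3.3 (quasi-likelihood F test, robust, 2-sided) on all 9 libraries in 1 model of 3 groups, scaled by TMM after filterByExpr (minimum count 10). TMM factors averaged 1.29 in GMTT, 0.602 in GPI and 1.28 in Sham. A gene was called at an adjusted p below 0.05 (Benjamini-Hochberg over all 15936 genes tested). The SE of an edgeR log2 fold change is its absolute value divided by the square root of the F statistic. It is an approximation that can be too small where a group has few counts, as GPI has for Sost, Mepe and Fgf23. The fit relative to osteoblast genes replaced the TMM factors by the mean log2 level of the 10 genes, with 0.5 added to each count. Counting intervals are exact binomial ones at 95% and cover counting error only. The series text gives 3 femurs a group without saying how they relate to animals, so p-values reflect only the spread among these libraries. Replicate pairs of a group differed by more than sampling noise (chi-square per degree of freedom 1.99 to 5.15).

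The members and lists were chosen with earlier results of these data known. Named outside the members were up to 4 genes per list and contrast by smallest p, the locus neighbours and the 3 nearest profiles above a floor of 1 on mean log2 CPM; some genes that this rule takes are not reported here. Alternatives were other scalings, DESeq2 1.42.0, other filters, fits of 6 libraries, a replicate block, limma 3.58.1 on log2(FPKM + 1) and log2(FPKM + 0.1), a fit without muscle, mitochondrial and erythroid genes, other osteoblast references and leaving out each library. The test was checked on simulated counts. Promoter sequences are from RefSeq, build GRCr8, matched by symbol. Figures were drawn with matplotlib 3.10.9.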

Additional observations from a re-analysis of the deposited data

How the results depend on the processing

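Counts of the 10 genes called were 8 to 10 in GPI against Sham, 10 in GMTT against GPI and 7 to 10 in GMTT against Sham under all alternatives, and 8 to 10 relative to the osteoblast genes. Leaving out each library gave 8 to 9, 10 and 9 to 10. Of 2070 recomputed values of named genes, 2041 kept their direction and side of the threshold, 13 lost and 7 gained a call and 9 turned direction. Changes of size alone were not counted here. With library sizes only, GPI against Sham turned to -0.38 for Sparc, -0.88 for Col1a1, -0.85 for Col1a2 and -0.40 for Nudt9; this scaling moves all genes of GPI together. In the ratio to osteoblast genes, Ibsp in GPI against Sham turned to 0.20 with the narrower reference and 0.37 with the median of the reference, in GMTT against GPI Ibsp turned to -0.0097 with the median, and Slc13a5 turned to -0.030 and -0.42; the cause was not tested. Same-numbered libraries did not visibly deviate together (correlations of -0.15 to 0.06 over 9 pairs, against -0.085 to 0.12 for different numbers). Whether the numbers pair the samples cannot be decided from these values, since a pairing with a small shared effect would look the same. With a replicate block, 8, 10 and 9 of the 10 genes were called in the 3 contrasts, as without it, and 13960, 13574 and 8815 of all genes. Depth limits Fgf23, Sost and Galnt3 in GPI, with 3 and 13 counts in all for Fgf23 and Sost. Their levels there carry wide counting error, which the SE of their changes can understate.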
